A study of Mus musculus with 8 samples.

Results

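The genes described here are the amino acid transporters of mouse Ba/F3 cells and their closest relatives, taken as every gene whose name on the array begins with Slc1a, Slc3a, Slc6a, Slc7a, Slc36a, Slc38a or Slc43a followed by a number. The array carried 112 probes for 62 such genes. Of these, 27 genes were bright enough to be tested, out of 13697 genes tested in all, and 35 were not. A gene was tested if the 2 arrays of some group both showed a probe of it well above background, and the brightest such probe stood for the gene. The name rule also takes in SLC6 and SLC43 genes whose proteins carry other small molecules, and Slc7a6os, which shares a name with its neighbour Slc7a6 and is given no transport role here.

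Ba/F3 is a mouse pro-B cell line that grows only with interleukin 3, and the cells were maintained in 10% fetal bovine serum with 0.1 ng/ml interleukin 3. They expressed either FLT3/ITD, a form of the receptor tyrosine kinase FLT3 with an internal tandem duplication, or wild type FLT3. Before harvest the cells spent 4 h in medium with 0.5% albumin, with 100 ng/ml Cxcl12 or without it. Cxcl12 is the chemokine ligand of the receptor Cxcr4. The 4 groups were FLT3/ITD cells without Cxcl12, wild type FLT3 cells without Cxcl12, FLT3/ITD cells with Cxcl12 and wild type FLT3 cells with Cxcl12, each with 2 arrays. Each of 2 slides, called sets, held 1 array of every group. The duplication was the one labelled N51 in set 1 and N78 in set 2, so the kind of duplication and the slide cannot be told apart. A group also occupied the same place on each slide, so group and place cannot be told apart. The labels do not say whether the arrays of a group came from separate cultures or clones, and the p-values measure only the spread between these arrays.

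Cells take up amino acids through carrier families that differ in substrate and in what drives them. Several work together. Slc1a5, an exchanger, and the sodium-coupled SLC38 carriers bring in glutamine and other small neutral amino acids. The heteromer of Slc7a5 with its heavy chain Slc3a2 trades these for leucine and other large neutral amino acids. Leucine and arginine inside the cell activate the growth kinase mTORC1, and shortage of amino acids activates the kinase GCN2 and the transcription factor ATF4, which is known to raise many transporter genes. In blood cells growth factor signals are known to raise the level of such carriers.

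In FLT3/ITD cells, 6 of the 27 tested genes differed from wild type FLT3 cells when both Cxcl12 states were averaged. Those that rose were Slc6a12, Slc6a4, Slc1a4, Slc1a5 and Slc6a13, and Slc7a8 fell. The 6 genes make up 22.2% of the 27, against 6.21% of all genes tested that passed in the same comparison, 3.61% higher and 2.6% lower. Slc6a12 and Slc6a4 entered the test through FLT3/ITD groups alone and Slc7a8 through a wild type FLT3 group alone. These shares are therefore a description and support nothing. Among genes well above background on all 8 arrays, 3 of 22 transporter genes passed, or 13.6%, against 7.71% of 11893 genes. The best known uptake carriers, Slc7a5, Slc3a2, Slc38a1 and Slc38a2, did not pass. No transporter gene passed in any comparison of cells with and without Cxcl12. All values below are log2 signals relative to the 75th percentile of their array, all differences are on that log2 scale, and a gene passed at an adjusted p under 0.05 in limma.

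Quality was alike across the arrays. The share of probes well above background was 49.2% to 54.9%, and no spot of a tested transporter was saturated. The 75th percentile of the signal was 937 to 1109 in set 1 and 367 to 600.0 in set 2, so set 2 was dimmer. The mouse Flt3 probe was well above background on the 4 arrays of set 2 and on none of set 1. It does not check the FLT3 labels, because the sources used here do not say from which species the expressed FLT3 came. Of 12 pro-B markers 4 were well above background on all 8 arrays, among them Cd79a, Cd79b and Vpreb1, and 7 were above it on no array, among them Pax5, Ebf1 and Rag1. The 3 genes of the interleukin 3 receptor were well above background on all 8 arrays.

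Markers of other blood cells moved with FLT3/ITD. Of 7 tested mast cell and basophil markers 2 fell in limma, Mcpt8 (adjusted p = 0.000154) and Cma1 (adjusted p = 0.000482). The summed level of these 7 markers was 4506% to 13532% of the 75th percentile on FLT3/ITD arrays and 20426% to 35785% on wild type FLT3 arrays, and Kit was above background on no array. Of 3 tested neutrophil markers Ctsg fell (limma adjusted p = 0.00126), while Mpo differed by -1.73 and Prtn3 by 0.44 and neither passed. Their summed level was 237% to 930% on FLT3/ITD arrays and 2862% to 7649% on wild type FLT3 arrays, and Elane was above background on no array. Of 4 tested monocyte and macrophage markers Lyz2 rose, by 2.57 (limma adjusted p = 0.000482), and the other 3 did not pass. The median difference of the 4 was -0.21. Adgre1, the brightest, had lower means in FLT3/ITD cells, 4.26 against 4.87 without Cxcl12 and 4.11 against 4.85 with it. The summed level, in which Adgre1 weighs most, was 790% to 4603% on FLT3/ITD arrays and 1814% to 4836% on wild type FLT3 arrays. Among 4 tested erythroid markers 1 rose, Tfrc, by 0.92 (limma adjusted p = 0.0317), and the summed level was 2315% to 3307% on FLT3/ITD arrays and 1762% to 3032% on wild type FLT3 arrays. Of 4 tested T cell markers limma called 0. Of the markers of the line itself, Ptprc of 5 tested pro-B markers fell by 0.55 (limma adjusted p = 0.041) and Csf2rb2 of the 3 interleukin 3 receptor genes fell by 0.60 (adjusted p = 0.0313). The summed level of those 3 receptor genes was 24533% to 35006% on FLT3/ITD arrays and 37063% to 59740.5% on wild type FLT3 arrays. The part of these shifts in the transporter differences was not tested. In such bulk samples, fewer cells of a type and less RNA per cell cannot be told apart.

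The promoter sequences of the 5 genes that passed and had a window are shown, since the members that passed include the neighbours Slc6a13 and Slc6a12. They are the bases before the most upstream start in RefSeq (GRCm38.p6), printed 5' to 3' in the direction of the gene. Of the 27 tested genes 20 had a window in that table, and Slc1a5 is among those without. Capitals mark the GC box letters GGGCGG, searched on both strands. These letters occur in 32.74% of all windows of 250 bases.
Slc6a12, chr6:121342324-121342573, plus strand: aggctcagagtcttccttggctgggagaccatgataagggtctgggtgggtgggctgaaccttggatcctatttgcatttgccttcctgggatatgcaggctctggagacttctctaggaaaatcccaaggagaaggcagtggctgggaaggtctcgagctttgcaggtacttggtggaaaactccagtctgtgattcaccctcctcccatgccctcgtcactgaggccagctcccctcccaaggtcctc
Slc6a13, chr6:121300038-121300287, plus strand: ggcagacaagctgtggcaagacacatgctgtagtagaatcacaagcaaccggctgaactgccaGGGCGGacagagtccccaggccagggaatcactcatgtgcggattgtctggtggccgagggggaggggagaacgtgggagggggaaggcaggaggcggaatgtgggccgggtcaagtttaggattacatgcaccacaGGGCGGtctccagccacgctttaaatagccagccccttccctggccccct
Slc6a4, chr11:76998347-76998596, plus strand: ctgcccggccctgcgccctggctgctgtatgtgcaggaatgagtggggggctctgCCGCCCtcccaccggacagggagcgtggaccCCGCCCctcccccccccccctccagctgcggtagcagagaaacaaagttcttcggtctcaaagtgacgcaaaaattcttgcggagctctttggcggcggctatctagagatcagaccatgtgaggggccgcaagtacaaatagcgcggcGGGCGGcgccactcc
Slc1a4, chr11:20332714-20332963, minus strand: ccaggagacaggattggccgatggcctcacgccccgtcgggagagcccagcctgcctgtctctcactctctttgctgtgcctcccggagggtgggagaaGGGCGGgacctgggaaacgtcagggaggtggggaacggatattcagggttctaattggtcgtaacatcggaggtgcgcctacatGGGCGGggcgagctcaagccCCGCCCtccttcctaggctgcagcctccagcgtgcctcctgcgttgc
Slc7a8, chr14:54781887-54782136, minus strand: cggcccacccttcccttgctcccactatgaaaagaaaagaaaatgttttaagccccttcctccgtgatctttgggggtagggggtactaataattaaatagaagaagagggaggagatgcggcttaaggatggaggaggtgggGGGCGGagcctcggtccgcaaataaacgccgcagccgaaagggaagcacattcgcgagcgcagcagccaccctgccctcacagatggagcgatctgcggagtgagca
In the order of the lines, these windows hold 0, 2, 3, 3 and 1 GC boxes. Their content of G and C is 55.6%, 60.8%, 64.8%, 64.8% and 55.6%, against a median of 52.4% over all windows. The TATA letters TATAAA, found in 12.37% of all windows, were in none of the 5.

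Motifs tied to amino acid shortage or to growth signals were searched in the 250 bases before each start, on both strands. The core of the amino acid response element, TGATGNAA, was found in 1 of the 20 tested genes with a window, Slc7a7, against 3.91% of all genes. The E-box CACGTG, bound by MYC and by lysosomal regulators, was found in 4 of 20, Slc36a1, Slc38a7, Slc43a1 and Slc6a16, against 6.86% of all genes. The STAT motif TTCNNNGAA was found in 2 of 20, Slc38a9 and Slc7a1, against 8.13% of all genes. No window of Slc6a12, Slc6a13, Slc6a4, Slc1a4 or Slc7a8 held any of these 3 motifs. A match in a window is only a run of letters, and its absence says nothing of a factor. The stretches before Slc36a1 and Slc38a7 are shown, with the E-box in capitals 31 and 34 bases before the start. Both encode carriers of the lysosome membrane, but the window of Slc38a9, also a lysosomal carrier, held no E-box. A link between E-boxes and lysosomal carriers was not tested, and neither Slc36a1 nor Slc38a7 passed.
Slc36a1, chr11:55204240-55204339, plus strand: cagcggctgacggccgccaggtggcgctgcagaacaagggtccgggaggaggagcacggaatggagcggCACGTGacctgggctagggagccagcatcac
Slc38a7, chr8:95853492-95853591, minus strand: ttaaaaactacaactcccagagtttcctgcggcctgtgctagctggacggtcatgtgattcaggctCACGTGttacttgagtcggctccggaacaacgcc

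The exchangers of small neutral amino acids in SLC1 were the only role group in which every tested member passed, with 2 of 2 higher. Slc1a5 encodes ASCT2, the sodium-dependent exchanger that brings in glutamine. Its probe lies on chromosome 7 (17383359 to 17383418, mm9). Slc1a5 measured 2.82 and 2.81 in FLT3/ITD cells without Cxcl12, against 2.10 and 2.26 in wild type FLT3 cells without it. FLT3/ITD cells with Cxcl12 gave 3.40 and 3.21, against 2.61 and 2.67 in wild type FLT3 cells with Cxcl12. All 4 FLT3/ITD values lay above all 4 wild type FLT3 values. The gene rose by 0.65 (SE 0.14, limma adjusted p = 0.0341), with 0.76 in set 1 and 0.55 in set 2. This is 1.57-fold. The call was kept when FLT3/ITD with Cxcl12 replicate 2 was left out and lost when any of the other 7 arrays was. Over these fits the difference was 0.59 to 0.72 and the adjusted p 0.0421 to 0.165.

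Slc1a4 encodes ASCT1, an exchanger of alanine, serine, cysteine and threonine, and its probe lies on chromosome 11 (20202533 to 20202592, mm9). It measured 0.14 and -0.03 in FLT3/ITD cells without Cxcl12, against -1.39 and -0.35 in wild type FLT3 cells without it. With Cxcl12 the values were -0.67 and -0.14 in FLT3/ITD cells, against -1.77 and -1.43 in wild type FLT3 cells. Each FLT3/ITD array exceeded the wild type FLT3 array of its own set and Cxcl12 state, though the pooled ranges overlapped. Slc1a4 rose by 1.06 (SE 0.21, limma adjusted p = 0.0262), with 1.31 in set 1 and 0.81 in set 2. A second probe gave 1.34. The call was lost in 6 of 8 fits that left out 1 array and was kept without wild type FLT3 replicate 1 or replicate 2, both without Cxcl12. Over the 8 fits the adjusted p was 0.0239 to 0.132 and the difference 0.86 to 1.26. With normexp background correction the differences of Slc1a4 and Slc1a5 were 0.56 and 0.99, with adjusted p = 0.236 and 0.162 in limma. The 5 glutamate transporters of SLC1, which belong mainly to nerve and epithelial cells, were not tested because none was above background on both arrays of a group.

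The largest increases were in SLC6 genes whose proteins carry betaine, GABA or serotonin and not the amino acids of proteins. Of the 6 tested genes of this role group, which also holds Slc43a3, 3 rose and 3 did not pass. Slc6a12 encodes the betaine and GABA transporter, and its probe lies on chromosome 6 (121315541 to 121315600, mm9). It measured -4.51 and -2.41 in FLT3/ITD cells without Cxcl12, against -6.28 and -5.41 in wild type FLT3 cells without it. In the presence of Cxcl12 the values were -3.01 and -2.07 in FLT3/ITD cells, against -7.20 and -4.85 in wild type FLT3 cells. All 4 FLT3/ITD arrays were well above background and above every wild type FLT3 array, and none of the 4 wild type FLT3 arrays was well above background. The means were -3.00 in FLT3/ITD cells and -5.93 in wild type FLT3 cells.

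Because the lower side of Slc6a12 was not well above background, its fold is given as a bound. The bound holds only for the rule below and for the background subtraction of the deposited signals. For each dim array the bound uses the higher of the gene's own signal and the lowest signal of any probe well above background there. By that rule Slc6a12 was at least 4.15-fold higher in FLT3/ITD cells (limma adjusted p = 0.00252), and the measured difference was 2.97 in set 1 and 2.88 in set 2. With Cxcl12 it was at least 5.17-fold higher (adjusted p = 0.0145). That call was lost without replicate 1 or 2 of wild type FLT3 with Cxcl12 and without FLT3/ITD with Cxcl12 replicate 1, with adjusted p up to 0.151 in limma. Without Cxcl12 the bound was 3.34-fold, with adjusted p = 0.0923 in limma, which did not pass. Over the 8 fits that left out 1 array the average difference was 2.67 to 3.19. Slc6a12 had entered the test through FLT3/ITD groups alone, and the genes to test were not chosen anew for these fits. With normexp background correction the average log2 difference was 0.21, which is less than the 4.15-fold bound, and did not pass (adjusted p = 0.863 in limma).

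Slc6a13 encodes a GABA and taurine transporter and lies directly beside Slc6a12 on chromosome 6. Its probe, at 121287597 to 121287656 (mm9), was well above background on all 8 arrays. It measured 3.001 and 3.71 in FLT3/ITD cells without Cxcl12, against 2.68 and 2.85 in wild type FLT3 cells without it. With Cxcl12 it measured 3.37 and 3.70 in FLT3/ITD cells, against 2.64 and 3.12 in wild type FLT3 cells. Within each set and Cxcl12 state the FLT3/ITD array was the higher, and the pooled ranges overlapped. Slc6a13 rose by 0.62 (SE 0.15, limma adjusted p = 0.0454), with 0.53 in set 1 and 0.72 in set 2, and a second probe gave 0.56. The call was lost in 6 of 8 fits that left out 1 array, with adjusted p up to 0.21, and was kept without wild type FLT3 replicate 1 or FLT3/ITD replicate 1, both without Cxcl12. It was also lost with normexp background correction, at a difference of 0.995 (limma adjusted p = 0.184), and with the mean of both probes (adjusted p = 0.0576).

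Slc6a4 encodes the serotonin transporter, and its probe lies on chromosome 11 (76845560 to 76845619, mm9). It measured -2.18 and -4.54 in FLT3/ITD cells without Cxcl12, against -4.10 and -6.65 in wild type FLT3 cells without it. FLT3/ITD cells with Cxcl12 gave -1.03 and -2.93, against -3.63 and -4.92 in wild type FLT3 cells with Cxcl12. In both sets the FLT3/ITD arrays were the higher, and within each group set 1 lay above set 2. The probe was well above background on 3 of 4 FLT3/ITD arrays and 2 of 4 wild type FLT3 arrays. All 4 arrays of set 1 were above it, and there the difference was 2.27. In set 2 neither wild type FLT3 array was, nor FLT3/ITD without Cxcl12, so the size there is uncertain. Slc6a4 rose by 2.16 on average (SE 0.28, limma adjusted p = 0.00482) and by 2.30 with Cxcl12 (adjusted p = 0.0365). The call with Cxcl12 was lost in 6 of 8 fits that left out 1 array, with adjusted p up to 0.274, and was kept without either array of wild type FLT3 cells without Cxcl12. It was also lost with quantile normalization (limma adjusted p = 0.0513). Without Cxcl12 the difference was 2.02, with limma adjusted p = 0.0851. Over the 8 fits that left out 1 array the average difference was 1.91 to 2.40. The genes to test were not chosen anew for these fits. Slc6a4 had entered the test only through the 2 arrays of FLT3/ITD cells with Cxcl12. With normexp background correction the average call was lost, at a difference of 0.21 (limma adjusted p = 0.812).

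**Figure D1:**
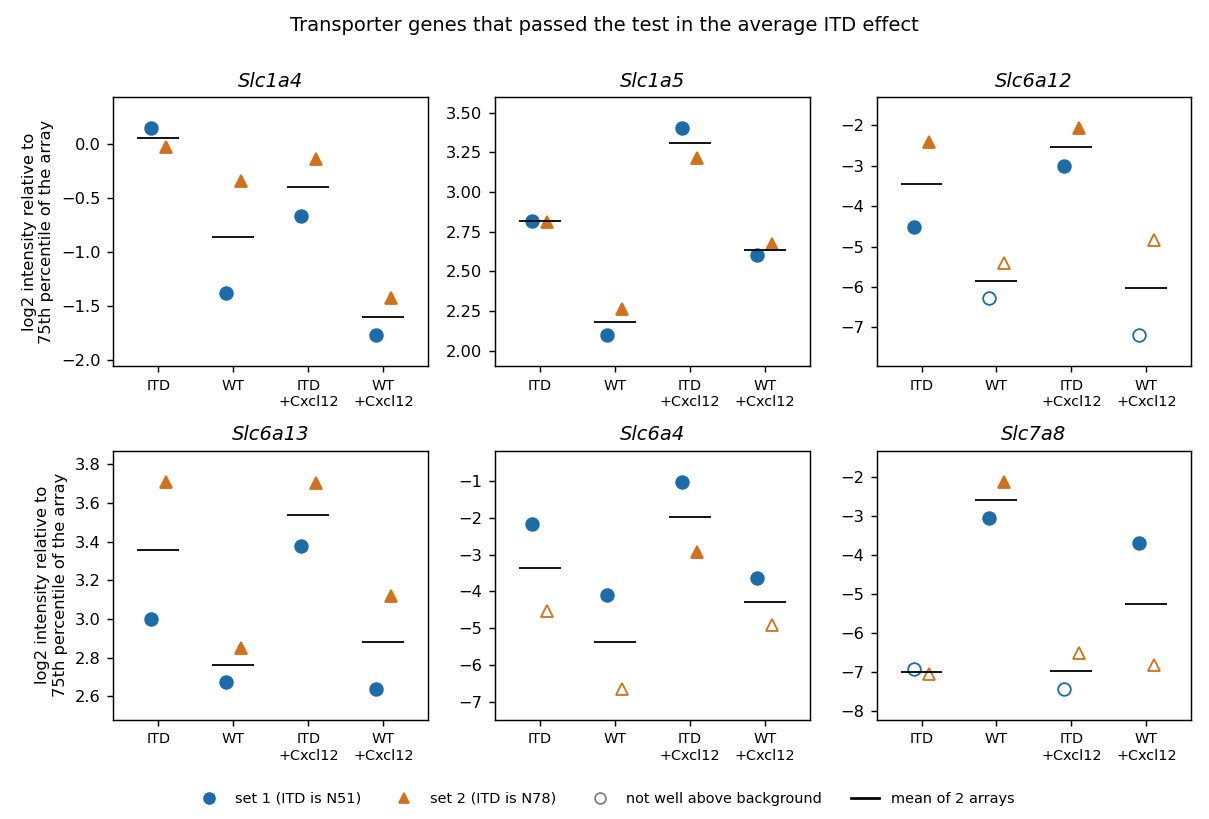
Log2 signal relative to the 75th percentile of the array for the 6 transporter genes that passed in the average ITD effect, with FLT3/ITD left of wild type FLT3 in each Cxcl12 state. Circles are set 1, triangles set 2, open symbols are not well above background and lines are means of 2 arrays: all 4 Slc1a5 values of FLT3/ITD cells, 2.81 to 3.40, lie above the wild type FLT3 values, 2.10 to 2.67.

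The 3 other tested genes of this role group did not pass. The taurine transporter Slc6a6 differed by 0.14, the purine nucleobase transporter Slc43a3 by 0.28 and the orphan transporter Slc6a16 by -0.11. Of the 10 SLC6 genes for amino acids 2 were tested and neither passed. The glycine transporter Slc6a9 measured 2.26 and 1.97 in FLT3/ITD cells without Cxcl12, against 1.69 and 2.43 in wild type FLT3 cells without it. In the presence of Cxcl12 the values were 2.41 and 1.77 in FLT3/ITD cells, against 1.97 and 1.498 in wild type FLT3 cells. These ranges overlapped, and the average difference was 0.20 (SE 0.23, limma adjusted p = 0.604). Slc6a17, a carrier of neutral amino acids in synaptic vesicles, was well above background on 1 of 4 FLT3/ITD arrays and 4 of 4 wild type FLT3 arrays and differed by -0.27.

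Among the carriers of large neutral amino acids 4 of 4 genes were tested, 1 fell and 3 did not pass. Slc7a8 encodes LAT2, a light chain that pairs with Slc3a2, and its probe lies on chromosome 14 (55341137 to 55341196, mm9). It measured -6.93 and -7.06 in FLT3/ITD cells without Cxcl12, against -3.05 and -2.13 in wild type FLT3 cells without it. With Cxcl12 it measured -7.43 and -6.53 in FLT3/ITD cells, against -3.70 and -6.83 in wild type FLT3 cells. No FLT3/ITD array was well above background, while 3 of 4 wild type FLT3 arrays were. The exception was wild type FLT3 with Cxcl12 in set 2, which lay within the FLT3/ITD range. Slc7a8 fell by 3.06 (SE 0.63, limma adjusted p = 0.0292), with -3.81 in set 1 and -2.31 in set 2.

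Under the same rule and limit, Slc7a8 was at least 1.90-fold lower in FLT3/ITD cells, with means of -6.99 there and -3.93 in wild type FLT3 cells. Without Cxcl12, where both wild type FLT3 arrays were above background, it was at least 5.41-fold lower, but the adjusted p of 0.0923 in limma did not pass. The average call was lost in 5 of 8 fits that left out 1 array and was kept without wild type FLT3 replicate 1, without wild type FLT3 with Cxcl12 replicate 2 or without FLT3/ITD with Cxcl12 replicate 2. The difference over these fits was -3.98 to -2.14, and the adjusted p was 0.00422 to 0.127. With normexp background correction the difference was -1.74 and did not pass (limma adjusted p = 0.205). Slc7a8 had entered the test only through the 2 wild type FLT3 arrays without Cxcl12. The genes to test were not chosen anew when an array was left out.

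Slc7a5 encodes LAT1, the main leucine carrier of growing cells, and its probe lies on chromosome 8 (124405142 to 124405201, mm9). It measured 4.59 and 3.64 in FLT3/ITD cells without Cxcl12, against 4.16 and 3.41 in wild type FLT3 cells without it. FLT3/ITD cells with Cxcl12 gave 4.77 and 3.28, against 4.69 and 3.24 in wild type FLT3 cells with Cxcl12. The slides were further apart than the groups, and within each slide FLT3/ITD was slightly the higher. The average difference was 0.19 (SE 0.17, limma adjusted p = 0.497). Slc43a1 and Slc43a2, which carry the same kind of amino acids without a heavy chain, differed by -0.02 and -0.06, and neither passed.

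Slc3a2 encodes 4F2hc, the heavy chain that brings Slc7a5, Slc7a6, Slc7a7 and Slc7a8 to the cell surface. Its probe is on chromosome 19 (8782189 to 8782248, mm9). It measured 5.37 and 5.42 in FLT3/ITD cells without Cxcl12, against 4.49 and 5.36 in wild type FLT3 cells without it. With Cxcl12 the values were 4.40 and 5.06 in FLT3/ITD cells, against 4.69 and 4.98 in wild type FLT3 cells. The ranges overlapped and the average difference of 0.18 did not pass (SE 0.16, limma adjusted p = 0.508). A second Slc3a2 probe, also above background on all 8 arrays, gave 0.75. The other heavy chain, Slc3a1 of kidney and gut, was above background on no array.

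Of the 2 light chains that exchange cationic for neutral amino acids, neither passed. Slc7a6 measured 0.75 and 0.61 in FLT3/ITD cells without Cxcl12, against 0.50 and 0.02 in wild type FLT3 cells without it. In the presence of Cxcl12 the values were 1.47 and 0.95 in FLT3/ITD cells, against 0.80 and 0.31 in wild type FLT3 cells. The FLT3/ITD array was the higher within each set and Cxcl12 state, and the average difference was 0.54 (SE 0.16, limma adjusted p = 0.0721). With the authors' normalized values it was 0.66 and passed (limma adjusted p = 0.045). Those values also moved the median difference of all genes from -0.01 to 0.12. A second Slc7a6 probe gave 0.63. Slc7a6os, which overlaps Slc7a6 on the other strand, differed by 0.28. Slc7a7, the other light chain, differed by -0.23.

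**Figure D2:**
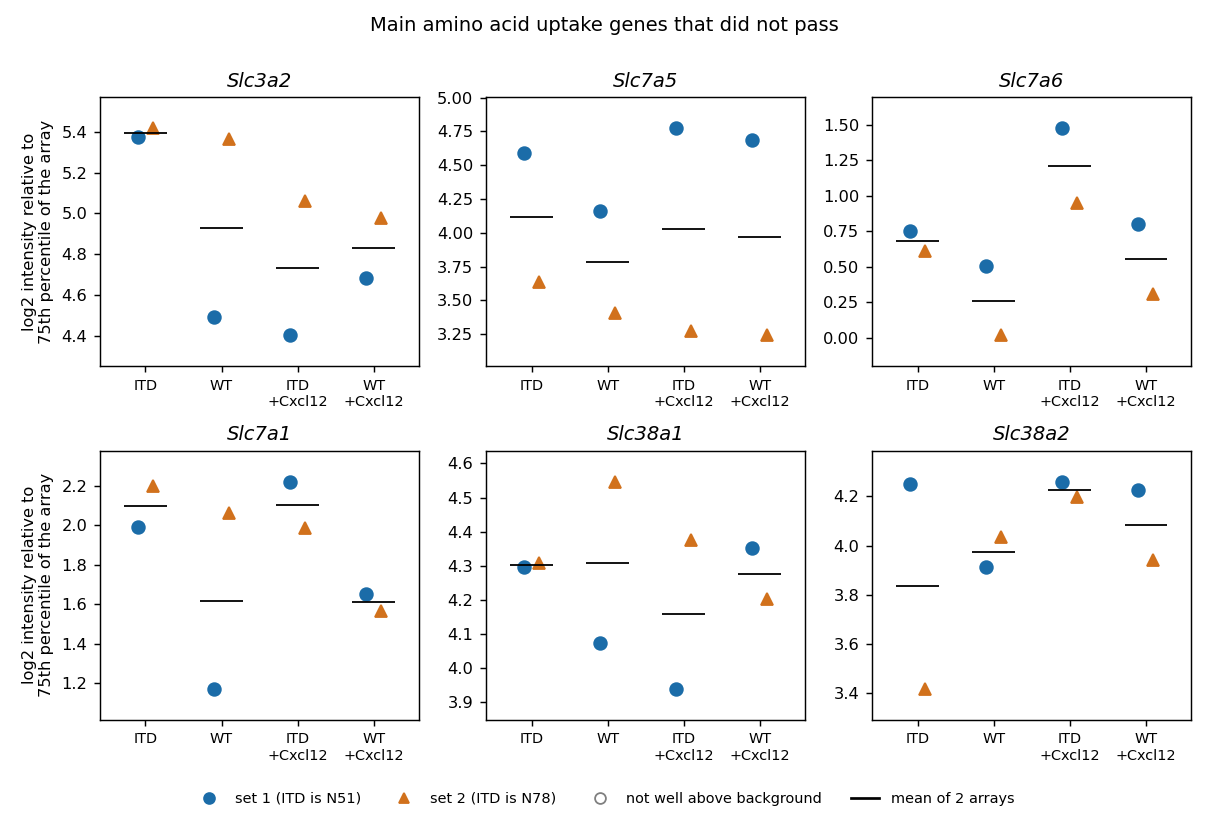
Log2 signal relative to the 75th percentile of the array for 6 main amino acid uptake genes that did not pass in the average ITD effect, with FLT3/ITD left of wild type FLT3, circles for set 1, triangles for set 2 and lines for means of 2 arrays. The Slc7a5 values of set 1, 4.16 to 4.77, lie above those of set 2, 3.24 to 3.64, in every group.

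The carriers of cationic amino acids were tested for 2 of 5 genes and neither passed. Slc7a1 encodes CAT1, the main arginine carrier of most cells. It measured 1.99 and 2.20 in FLT3/ITD cells without Cxcl12, against 1.17 and 2.06 in wild type FLT3 cells without it. With Cxcl12 it measured 2.22 and 1.99 in FLT3/ITD cells, against 1.65 and 1.57 in wild type FLT3 cells. FLT3/ITD was the higher within each pair, and the difference of 0.49 did not pass (SE 0.20, limma adjusted p = 0.167). Another Slc7a1 probe, above background on 6 arrays, gave -0.57, so the direction depends on the probe. Slc7a3, a related arginine carrier, lay near background and differed by -0.74 (SE 0.55, limma adjusted p = 0.435).

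In the SLC38 family, sodium-coupled carriers of glutamine and other small neutral amino acids, 5 of 10 genes were tested and none passed in limma, with a median difference of -0.06. Slc38a1 (SNAT1) measured 4.30 and 4.31 in FLT3/ITD cells without Cxcl12, against 4.07 and 4.55 in wild type FLT3 cells without it. FLT3/ITD cells with Cxcl12 gave 3.94 and 4.38, against 4.35 and 4.20 in wild type FLT3 cells with Cxcl12. The groups overlapped, and the average difference was -0.06 (SE 0.16, limma adjusted p = 0.83). Slc38a2 (SNAT2) is known to be raised by amino acid shortage. It measured 4.25 and 3.42 in FLT3/ITD cells without Cxcl12, against 3.91 and 4.04 in wild type FLT3 cells without it. In the presence of Cxcl12 the values were 4.26 and 4.20 in FLT3/ITD cells, against 4.23 and 3.94 in wild type FLT3 cells. These too overlapped, with an average difference of 0.00 (SE 0.18, limma adjusted p = 0.996). Both genes had further probes of the opposite sign.

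Slc38a9 and Slc38a7 encode lysosomal carriers, the first of them the arginine sensor of mTORC1, and Slc36a1 encodes a carrier that exports small amino acids from lysosomes. Slc38a9 differed by -0.08 and Slc38a7 by -0.10. The 3 other Slc38a9 probes gave lower values. Those above background on all 8 arrays gave -0.57 and -0.35, and the one above it on 6 arrays gave -1.81. Slc38a10, of less known function, gave 0.17, the highest of the SLC38 family. Of the 4 SLC36 genes 2 were tested. Slc36a1 measured 0.62 and -0.86 in FLT3/ITD cells without Cxcl12, against 1.09 and -0.26 in wild type FLT3 cells without it. With Cxcl12 it measured 0.55 and -0.28 in FLT3/ITD cells, against 1.38 and -0.04 in wild type FLT3 cells. FLT3/ITD was the lower within each pair, and the difference of -0.53 did not pass (SE 0.17, limma adjusted p = 0.0944). Slc36a2, its neighbour on chromosome 11, differed by -0.18.

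**Figure D3:**
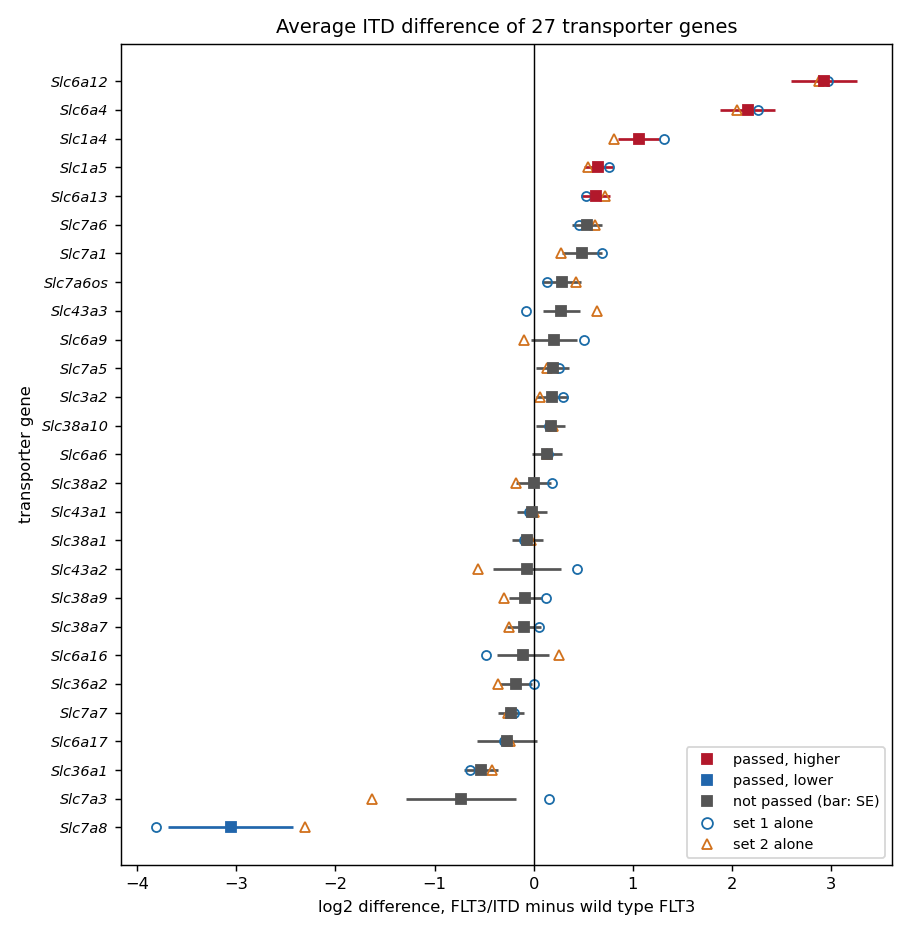
Average log2 difference, FLT3/ITD minus wild type FLT3, of the 27 tested transporter genes (squares, bars are standard errors), with set 1 alone as circles and set 2 alone as triangles. Red and blue squares passed, from Slc6a12 at 2.93 to Slc7a8 at -3.06, and 21 genes in grey did not.

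Other settings bear on the 6 calls together. With no filter on dim probes 4 of them were lost, with limma adjusted p = 0.0915 for Slc1a4, 0.0729 for Slc1a5, 0.0947 for Slc6a13 and 0.105 for Slc7a8. Without the slide as a block all 6 were lost, with limma adjusted p of 0.642 to 0.952.

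Over the 27 genes the average difference had a median of 0.14, against -0.01 over all genes, and ran from -3.06 to 2.93. Of the 27, 9 had an unadjusted p under 0.05, against 26.2% of all genes. The difference was above 0 in 15 genes and below 0 in 12, and 17 had the same sign in both sets. In 9 genes the FLT3/ITD array was the higher in all 4 pairs of set and Cxcl12 state: the 5 that rose and Slc7a1, Slc7a5, Slc7a6 and Slc38a10. In 2 genes, Slc36a1 and Slc7a7, it was the lower in all 4. No share over all genes is given for these counts of sign, so they describe the 27 genes only. The 5 that rose were called on the same arrays. Among the 12 genes with several tested probes, 3 had a probe of the opposite sign in this comparison. Split by Cxcl12, 2 of 27 genes passed with it, Slc6a12 and Slc6a4, or 7.41%, against 0.84% of all genes. Both had entered the test through FLT3/ITD groups alone, so the 7.41% is a description and supports nothing. In the same comparison 6 of the 27 had an unadjusted p under 0.05, against 18.2% of all genes. Without Cxcl12 limma called 0 of 27, against 0.511% of all genes, and 6 transporter genes had an unadjusted p under 0.05, against 12.3% of all genes. Whether the ITD difference itself changed with Cxcl12 was tested as the interaction. There limma called 0 of 27 genes and 0% of all genes, and 0 of the 27 had an unadjusted p under 0.05, against 1.72% of all genes.

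Cxcl12 was compared in the same fit. Averaged over FLT3/ITD and wild type FLT3 cells, limma called 0 of the 27 transporter genes, against 0.402% of all genes, and 7 had an unadjusted p under 0.05, against 14.8% of all genes. The median difference, with minus without Cxcl12, was 0.00, against 0.01 over all genes. The nearest to passing was Slc6a4, at 1.24 (SE 0.28, limma adjusted p = 0.0925). Slc1a5 differed by 0.48 (SE 0.14, limma adjusted p = 0.172), and it was the higher with Cxcl12 in each of the 4 pairs of set and cell type. Slc43a1, a facilitated carrier of leucine, differed by 0.50 (SE 0.15, limma adjusted p = 0.178). It measured 2.31 and 2.45 in FLT3/ITD cells with Cxcl12, against 1.87 and 1.83 in FLT3/ITD cells without it. In wild type FLT3 cells it measured 2.25 and 2.49 with Cxcl12, against 2.02 and 1.78 without it. All 4 Slc43a1 values with Cxcl12 lay above all 4 without it.

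On the lower side, Slc1a4 differed by -0.60 with Cxcl12 (SE 0.21, limma adjusted p = 0.236) and Slc3a2 by -0.38 (SE 0.16, adjusted p = 0.319). The Slc1a4 and Slc1a5 differences with Cxcl12 thus had opposite signs, and neither passed. Slc7a8 had the lowest value, -1.33, and was above background on 1 of 4 arrays with Cxcl12 and 2 of 4 without it. In FLT3/ITD cells alone limma called 0 of 27 genes and 0% of all genes, with 5 transporter genes at an unadjusted p under 0.05, against 10.4% of all genes. In wild type FLT3 cells alone it called 0 of 27, against 0.0657% of all genes, with 4 at an unadjusted p under 0.05, against 7.15% of all genes. The comparisons with and without Cxcl12 use the same arrays as the ITD comparisons.

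**Figure D4:**
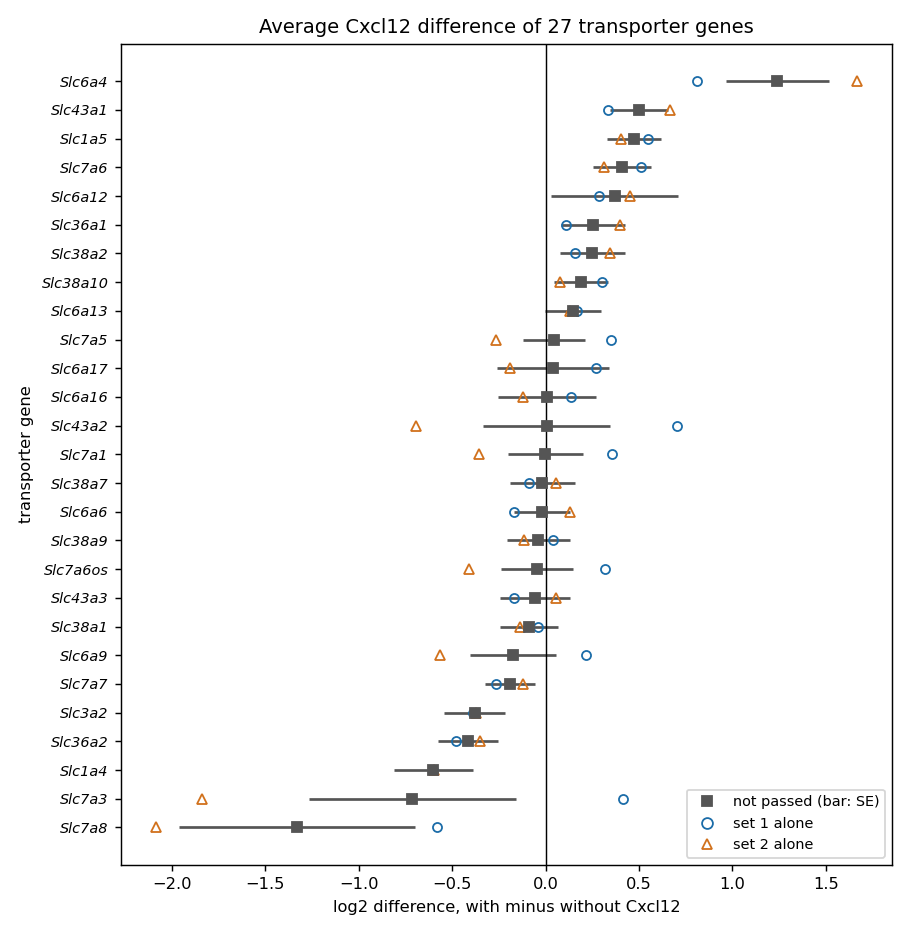
Average log2 difference, with minus without Cxcl12, of the 27 tested transporter genes (squares, bars are standard errors), with set 1 alone as circles and set 2 alone as triangles. No gene passed, and the values run from Slc6a4 at 1.24 to Slc7a8 at -1.33.

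The 35 genes not tested were mostly carriers of nerve, kidney and gut. Of these 21 were well above background on no array and 14 on 1 or more. They include Slc7a11, the cystine carrier xCT, whose light chain feeds glutathione synthesis. Of its 4 probes, the probe above background on most arrays measured, in set 1, -2.82 in FLT3/ITD cells without Cxcl12, against -4.10 in wild type FLT3 cells without it. With Cxcl12 it measured -4.78 in FLT3/ITD cells, against -4.63 in wild type FLT3 cells. All 4 of these set 1 values were well above background. Another Slc7a11 probe gave, in set 1, -4.12 in FLT3/ITD cells and -4.88 in wild type FLT3 cells without Cxcl12. With Cxcl12 that probe gave -5.09 in FLT3/ITD cells, not well above background, and -2.78 in wild type FLT3 cells, so the probes differed there. In set 2 neither of these probes was above background on any array. A further Slc7a11 probe was above it there without Cxcl12 alone, at -3.42 in FLT3/ITD cells and -3.88 in wild type FLT3 cells. No cystine or related light chain was tested, out of 6 on the array.

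Genes that sense, make or use amino acids were described from 5 lists, whose counts stand beside the 3.61% of all genes that rose and the 2.6% that fell. Of 34 tested genes of amino acid sensing by mTORC1, 1 rose and 2 fell in the average ITD effect, with a median of 0.04 against -0.01 over all genes. Castor1, the cytosolic arginine sensor, rose by 1.89 (limma adjusted p = 0.0247). Sesn3, of the sestrin family that restrains mTORC1, fell by 1.29 (adjusted p = 0.0159), and Fnip1, a partner of folliculin, fell by 0.71 (adjusted p = 0.0291). Of 21 tested genes of the GCN2 and ATF4 response, 6 rose and none fell, with a median of 0.54. In order of size they were Nupr1 at 2.89, Pycr1 at 1.33, Phgdh and Asns at 1.04 each, Shmt2 at 0.67 and Eif4ebp1 at 0.65. Pycr1, Phgdh, Asns and Shmt2 encode enzymes that make proline, serine, asparagine and glycine, Nupr1 a stress-induced nuclear protein, and Eif4ebp1 a brake on translation. Atf4 itself differed by 0.76 and did not pass (limma adjusted p = 0.0983).

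In the 3 further lists a single gene passed in each direction at most, against 6.21% of all genes in both directions. Of 19 tested carriers of amino acids in other families, 1 rose and 1 fell. Slc25a22, a mitochondrial glutamate carrier, rose by 1.14 (limma adjusted p = 0.0349), and Slc17a5, the lysosomal sialic acid exporter, fell by 0.85 (adjusted p = 0.0365). Of 13 tested genes of glutathione, the main use of cystine, Gpx1, a glutathione peroxidase, fell by 0.65 (limma adjusted p = 0.0263) and the other 12 did not pass. Of 16 tested genes of glutamine and branched chain use, Got1, the cytosolic aspartate aminotransferase, rose by 0.70 (adjusted p = 0.0296) and the other 15 did not pass. With Cxcl12, averaged over both cell types, 1 gene of the 5 lists passed, against 0.402% of all genes. It was 1 of the 21 tested genes of the GCN2 and ATF4 response. Ddit4, a stress-induced inhibitor of mTORC1, fell by 1.80 (limma adjusted p = 0.0265).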

How the data were processed

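Each of the 8 samples was hybridised to a 1-colour Agilent array. The deposited intensity columns are, per the file headers, Agilent Feature Extraction processed signals (version 9.5.1.1 in set 1, 10.7.3.1 in set 2), background-subtracted on each array. The mean and background intensity columns deposited beside them served 1 alternative. From the deposited intensity log2 was taken and each array's 75th percentile subtracted. The authors' normalized tables, another alternative, hold the same deposited intensity times 1 factor per array, which sets the column median to 100 in set 1 and 1 in set 2: 99.7% to 99.9% of probes matched within 0.01 log2.

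The filter on dim probes given above left 21113 of 41174 probes. Spots that the software called outliers, 93 to 203 on each array, were treated as missing values. All 8 arrays were fitted with limma 3.58.1 in R 4.3.3 (with the data.table package, 1.17.8), on 4 group means plus slide as fixed block, leaving 3 residual degrees of freedom. Pairing was by slide, per the file headers, and deviations from group means within a slide correlated at 0.731 to 0.879. P-values were Benjamini-Hochberg adjusted over all genes in each of 7 comparisons. The small number of arrays limits the precision.

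Genes that passed in any comparison and Slc7a5, Slc3a2, Slc1a5, Slc7a1, Slc7a11, Slc38a2, Slc38a1, Slc7a6, Slc1a4 and Slc6a9 are given array by array, and the others by role group; Slc36a1 and Slc43a1 were added array by array after their values were seen. The members and lists were chosen with earlier results of these data known. The alternatives were background correction, normalization, the filter on dim probes, the block, the mean of probes and leaving out each array. Probe positions (mm9) come from the deposited scanner output of set 2. No genome sequence was read.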

Additional observations from a re-analysis of the deposited data

Results flagged for a closer look

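The brightest Slc38a9 probe and the Slc43a3 probe each had ITD differences of opposite sign for the N51 and N78 duplications, in both Cxcl12 states. For the lysosomal carrier Slc38a9, FLT3/ITD minus wild type FLT3 was 0.20 without and 0.062 with Cxcl12 for N51 in set 1, and -0.41 without and -0.19 with Cxcl12 for N78 in set 2. The other 3 of the 4 Slc38a9 probes gave values below 0 in both sets and both Cxcl12 states, from -2.74 to -0.04, so the opposite direction holds for 1 probe. For the purine nucleobase transporter Slc43a3 it was -0.075 without and -0.084 with Cxcl12 for N51, and 0.55 without and 0.73 with Cxcl12 for N78. Each of these values rests on 1 array against 1, and the difference between N51 and N78, which cannot be told apart from the slide, was not tested. These were 2 of the 27 tested genes. The share of all genes with such opposite signs is not given, so the count is a description only.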

How the results depend on the processing

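In the average ITD effect 6 transporter genes passed. The number was 6 with quantile normalization, 7 with the authors' tables and 5 with the mean of a gene's probes. Over all genes the same settings called 713, 1236 and 828, in place of 850. It was 2 of 62 genes without the filter on dim probes (all genes 179 in place of 850). It was 3 of 22 with probes above background on all 8 arrays (917 of 11893 genes) and 0 with normexp background correction (391 of all genes). Fits that left out 1 array are given above for each of the 6 genes. Without the slide as a replicate block limma called 0 of the 27, and 0 of all genes. The cause was not tested for normexp or for the block, and the filters change how many genes are tested. With Cxcl12 alone 2 passed (all genes 115). It was 0 with normexp (all genes 210), without the filter (21), with the stricter filter (80) and with no replicate block (0). It was 1 with quantile normalization (all genes 91), and 2 with the authors' tables (198) and with the mean of a gene's probes (121). There normexp turned the direction of Slc6a12 to -0.018 and of Slc6a4 to -0.097, with adjusted p = 0.99 and 0.925 in limma, while it moved the median of all genes to 0.15. Without Cxcl12 0 passed, against 3 with the authors' tables (Slc6a12, Slc6a4 and Slc7a8). Over all genes the authors' tables called 168 in place of 70 without Cxcl12. They also moved the median of all genes by 0.13, to 0.12, in the average ITD effect. The Cxcl12 comparisons and the interaction called 0 of the 27 genes under every alternative run. Probes near background, those of Slc6a12, Slc6a4 and Slc7a8, limit the sizes given.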
